A study of Mus musculus with 4 samples.

Results

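The 9 genes described here code for receptors that vessel walls use to stop and admit white blood cells: Sele, Selp, Ackr1, Icam1, Vcam1, Icam2, Cd34, Cd99l2 and Madcam1. They were taken by symbol from the 32285 genes counted in single brain cells sorted for the endothelial surface protein CD31. The 4 libraries came from C57BL6 mice fed for 1 month either a diet with 1200 ppm PLX5622 (2 libraries) or a control diet (2 libraries). Each diet's libraries were made from the brains of 3 mice, with meninges, cerebellum and olfactory bulbs removed, so libraries of a diet may share mice, and p-values measure the spread between libraries, which may be technical. PLX5622 blocks the receptor CSF1R, whose signal keeps microglia alive, and the study asked how the vasculature responds when microglia are depleted. Sex and age of the mice are not given in the sources used here.

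In the textbook order of leukocyte entry, selectins on the endothelium first slow a passing leukocyte, chemokines shown on the luminal surface then activate it, and immunoglobulin-type receptors hold it firmly before it crosses the wall. In most tissues this takes place in venules just after the capillaries, and in the healthy brain the selectins are kept low or silent. E-selectin (Sele) and P-selectin (Selp) are the capturing receptors, and Ackr1 carries chemokines across venular endothelium without signalling through G proteins. Icam1 and Icam2 bind leukocyte beta2 integrins, Vcam1 binds the integrin VLA-4, the sialomucin Cd34 is a scaffold for selectin ligands and a general endothelial surface protein, and Cd99l2 acts during passage through the wall. Madcam1 is the addressin of gut venules.

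In GENCODE M21 (GRCm38), Sele spans chr1:164048234-164057677, Selp chr1:164115264-164150026 and Cd34 chr1:194938819-194961279 on the plus strand, and Ackr1 spans chr1:173331886-173333750 on the minus strand. Icam1 spans chr9:21015985-21028817 and Madcam1 chr10:79664559-79668537 on the plus strand, while Vcam1 (chr3:116109949-116129688), Icam2 (chr11:106377656-106388075) and Cd99l2 (chrX:71420060-71492849) lie on the minus strand. All 9 are annotated as protein coding. The 250 bases before the RefSeq start site are printed here for Icam1 and for Sele, Selp and Ackr1, whose UMIs lay largely in vein-like cells. Cd34, found in every zone, is printed beside them. In the RefSeq promoter table used here (GRCm38.p6), 7 of the 9 members were matched, and Vcam1 and Icam2 are named only. Each sequence reads 5′ to 3′ on the gene's strand, and capitals mark matches to GGNNNTTCC or its reverse complement GGAANNNCC, a loose spelling of the element bound by the inflammatory factor NF-kB.
Sele: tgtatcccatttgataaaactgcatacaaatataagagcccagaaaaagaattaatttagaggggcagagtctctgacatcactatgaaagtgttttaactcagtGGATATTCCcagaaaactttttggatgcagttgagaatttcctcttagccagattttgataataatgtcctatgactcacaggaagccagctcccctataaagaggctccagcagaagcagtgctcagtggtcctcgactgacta
Selp: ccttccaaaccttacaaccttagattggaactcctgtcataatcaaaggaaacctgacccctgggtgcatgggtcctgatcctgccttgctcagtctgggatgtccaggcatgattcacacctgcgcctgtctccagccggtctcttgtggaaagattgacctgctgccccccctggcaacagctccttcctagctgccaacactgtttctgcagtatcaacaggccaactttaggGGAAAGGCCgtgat
Ackr1: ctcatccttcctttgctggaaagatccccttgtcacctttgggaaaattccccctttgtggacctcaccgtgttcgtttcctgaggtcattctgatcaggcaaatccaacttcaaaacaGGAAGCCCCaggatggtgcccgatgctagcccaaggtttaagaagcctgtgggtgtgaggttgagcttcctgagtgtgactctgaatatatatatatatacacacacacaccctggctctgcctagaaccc
Icam1: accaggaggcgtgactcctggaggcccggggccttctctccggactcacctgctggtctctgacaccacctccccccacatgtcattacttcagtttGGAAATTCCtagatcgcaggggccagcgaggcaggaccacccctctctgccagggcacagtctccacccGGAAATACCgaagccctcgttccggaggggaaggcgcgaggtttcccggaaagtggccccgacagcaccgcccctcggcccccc
Cd34: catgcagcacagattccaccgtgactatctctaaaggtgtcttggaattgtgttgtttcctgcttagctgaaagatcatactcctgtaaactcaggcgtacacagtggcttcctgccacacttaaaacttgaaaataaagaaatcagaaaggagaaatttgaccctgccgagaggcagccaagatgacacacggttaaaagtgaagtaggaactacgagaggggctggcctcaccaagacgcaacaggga
They lie at chr1:164047984-164048233 (plus strand), chr1:164115014-164115263 (plus), chr1:173333504-173333753 (minus), chr9:21015690-21015939 (plus) and chr1:194938571-194938820 (plus). RefSeq and GENCODE starts differ for some genes, and positions below count from the RefSeq start. Almost all of the Ackr1 window lies inside the gene's GENCODE span, whose start on the minus strand is at 173333750. The Icam1 window ends at 21015939, short of the GENCODE start at 21015985. Sele holds GGATATTCC from position -145 relative to the start site, and Icam1 holds GGAAATTCC from -153, which matches on either strand, and GGAAATACC from -84. Selp holds GGAAAGGCC from -14 and Ackr1 GGAAGCCCC from -131. Madcam1, not printed, holds a match at -83 and another at -70, and the windows of Cd34 and Cd99l2 hold none. These letters occur in 15.7% of all 32851 promoters of this length, 5144 in number, so a match describes the sequence and is not evidence of a bound site.

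A barcode counted as a cell from 1000 UMIs (unique molecular identifiers, each standing for 1 captured RNA molecule) and 500 genes upwards, if mitochondrial UMIs were no more than 10%. This left 3989 and 3670 cells on PLX5622 diet and 1696 and 5509 on control diet, with a median of 3834 and 5922 UMIs per cell on PLX5622 diet, against 5184 and 5573 on control diet. Any pair of libraries shared 1 to 6 cell barcodes, at most 0.236% of the smaller library. Of the kept cells, 13038 were endothelial-like: 3520 and 3161 on PLX5622 diet, 1494 and 4863 on control diet. Their zones were named from marker genes other than the receptors, and the clustering left out 284 genes, the receptors and inflammatory genes among them. It gave 1791 artery-like, 1524 arterial-side capillary-like, 4577 venous-side capillary-like and 1195 vein-like cells (248 and 331 on PLX5622 diet, 129 and 487 on control diet), while 3951 cells remained in clusters without a zone name. Among these, cluster 3 (1488 cells) had 7 of 10 vein markers raised but missed the mean log2 fold of 1 set for veins after the clusters were seen. It was 9.55% and 7.43% of endothelial-like cells on PLX5622 diet, against 8.23% and 16.3% on control diet, and held no UMI of Ackr1, Sele or Selp. The vein-like cells formed 2 clusters, each with 8 of 10 vein markers raised (among them Nr2f2, Slc38a5 and Vwf): cluster 6 with 1106 cells, led by Wnt5a, and cluster 12 with 89 cells, led by Ackr1, Lrg1, Lcn2, Ptgs2 and Ch25h. Cluster 12 thus stood out by inflammatory genes that had no part in forming it.

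The receptors fell into a venous set and a general set. Ackr1 and Selp were almost absent outside vein-like cells, and Sele, scarce in every zone, had 10 of its 17 positive cells there. Icam1 and Vcam1 peaked in vein-like cells, and Icam2, Cd34 and Cd99l2 were present in all 4 zones (see the plot of levels by zone). Vein-like cells, 9.17% of endothelial-like cells, held 100% of the 17 Selp UMIs, 94.8% of the 575 Ackr1 UMIs, 82.6% of the 69 Sele UMIs, 68.2% of the 4011 Vcam1 UMIs and 53.1% of the 5565 Icam1 UMIs. Madcam1 was read by 2 UMIs in 2 cells, which cannot be told apart from background.

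**Figure D1:**
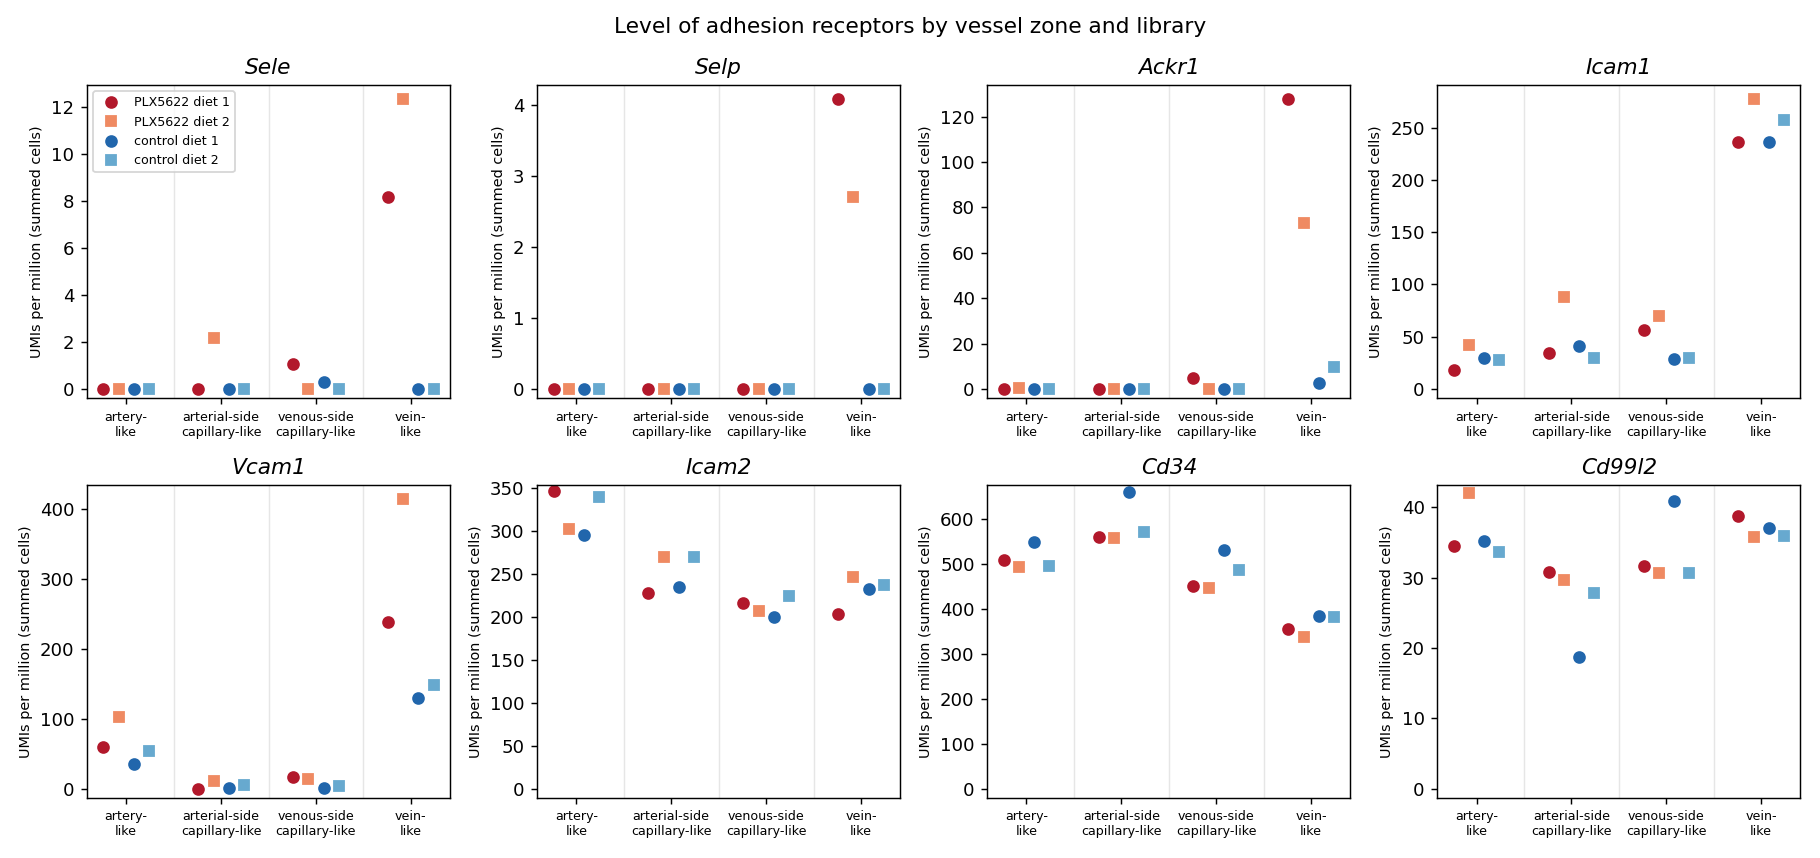
CPM (UMIs of a gene scaled to a common total) of 8 receptors in summed cells of the 4 named zones (x axis), 1 point per library, with PLX5622 libraries in red tones and control libraries in blue tones. Ackr1 and Selp are near 0 outside the vein-like zone and Sele is at most 2.16 there, while Icam2, Cd34 and Cd99l2 are present throughout.

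Sele and Selp, the capturing selectins, were detected in a handful of cells. Sele had 23 UMIs in 9 cells and 45 UMIs in 7 cells on PLX5622 diet, against 1 UMI in 1 cell and 0 UMIs on control diet. A single cell gave 24 of the 45 UMIs of PLX5622 library 2. Selp had 8 UMIs in 4 cells and 9 UMIs in 3 cells on PLX5622 diet, against 0 and 0 on control diet, where a count of 0 allows shares of up to 0.201% and 0.0617% of cells with a UMI. All 17 Selp UMIs and 57 of the 69 Sele UMIs were in the 89 cells of cluster 12. Selp is also stored by platelets. Platelet markers summed to 22.1 and 17.9 CPM (counts scaled to a common total per library) in all endothelial-like cells on PLX5622 diet, against 17.9 and 19.4 on control diet, and the diets overlapped. The part of platelets in the Selp counts was not tested.

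Ackr1, the chemokine carrier of venules, was held by few cells with many copies each. It had 279 UMIs in 21 cells and 245 UMIs in 21 cells on PLX5622 diet, against 3 UMIs in 2 cells and 48 UMIs in 9 cells on control diet. The positive cells thus held on average 13.3 and 11.7 UMIs on PLX5622 diet, against 1.5 and 5.33 on control diet, and the highest cell held 57. In the vein-like zone its level was 128 and 73.3 CPM on PLX5622 diet, against 2.71 and 9.48 on control diet. A single cluster held most of it: 538 of the 575 UMIs were in cluster 12, and 26 of the rest came from the capillary cluster 5 of PLX5622 library 1. An Ackr1 UMI was held by 48.3% of cluster 12 (median 10742 UMIs), against, among cells that should lack it, 3 of 173 pericyte-like cells (median 4245 UMIs) and none of 226 smooth muscle-like cells (median 8766 UMIs). The 3 pericyte-like cells are 1.73%, above the 0.45% of the vein-like cluster 6 (median 8447 UMIs), so single Ackr1 UMIs there are read as background.

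Icam1, the inducible partner of the integrin LFA-1, was highest in vein-like cells at 252 ± 19.96 CPM (SD over 4 libraries), and no library's vein-like value overlapped any other zone. It averaged 48.5 ± 26.7 in arterial-side capillary-like, 46.2 ± 20.1 in venous-side capillary-like and 29.0 ± 9.89 in artery-like cells, and these 3 zones overlapped from each to the next. Vcam1, the ligand of VLA-4, had a different order: vein-like first at 232 ± 130 CPM, artery-like next at 63.0 ± 28.4, and venous-side and arterial-side capillary-like cells last at 8.59 ± 7.84 and 4.40 ± 4.59. Vein-like and artery-like values did not overlap each other or the capillaries, while the capillary zones overlapped. Arterial Vcam1 was uneven, with a UMI in 29.2% of cells of the Mgp-led artery-like cluster 10 (342 cells) and in 4.90% of the other artery-like cluster. Vcam1 was also found outside the endothelium, in 43.9% of 98 astrocyte-like cells (median 4896 UMIs) and 11 of 13 fibroblast-like cells, so it is not a marker of vessels alone in these libraries.

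The general receptors differed less between zones. Icam2, a constitutive integrin ligand, averaged 321 ± 25.8 CPM in artery-like cells and between 212 and 251 in the other 3 zones, with artery-like values above all others. Cd34 averaged 588 ± 49.0 in arterial-side capillary-like, 512 ± 25.5 in artery-like, 479 ± 39.5 in venous-side capillary-like and 365 ± 22.5 in vein-like cells, and its vein-like values lay below every other zone. The vein-like zone, highest for Icam1 and Vcam1, was therefore lowest for Cd34. Cd99l2 ranged between 26.8 and 36.9 on average, and its zones overlapped. An Icam2 UMI was found in 68.0% and a Cd34 UMI in 84.1% of endothelial-like cells, with medians of 3806 to 5886 UMIs per cell across libraries, against 8.41% and 11.9% of the deeper smooth muscle-like cells (median 8766 UMIs).

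**Figure D2:**
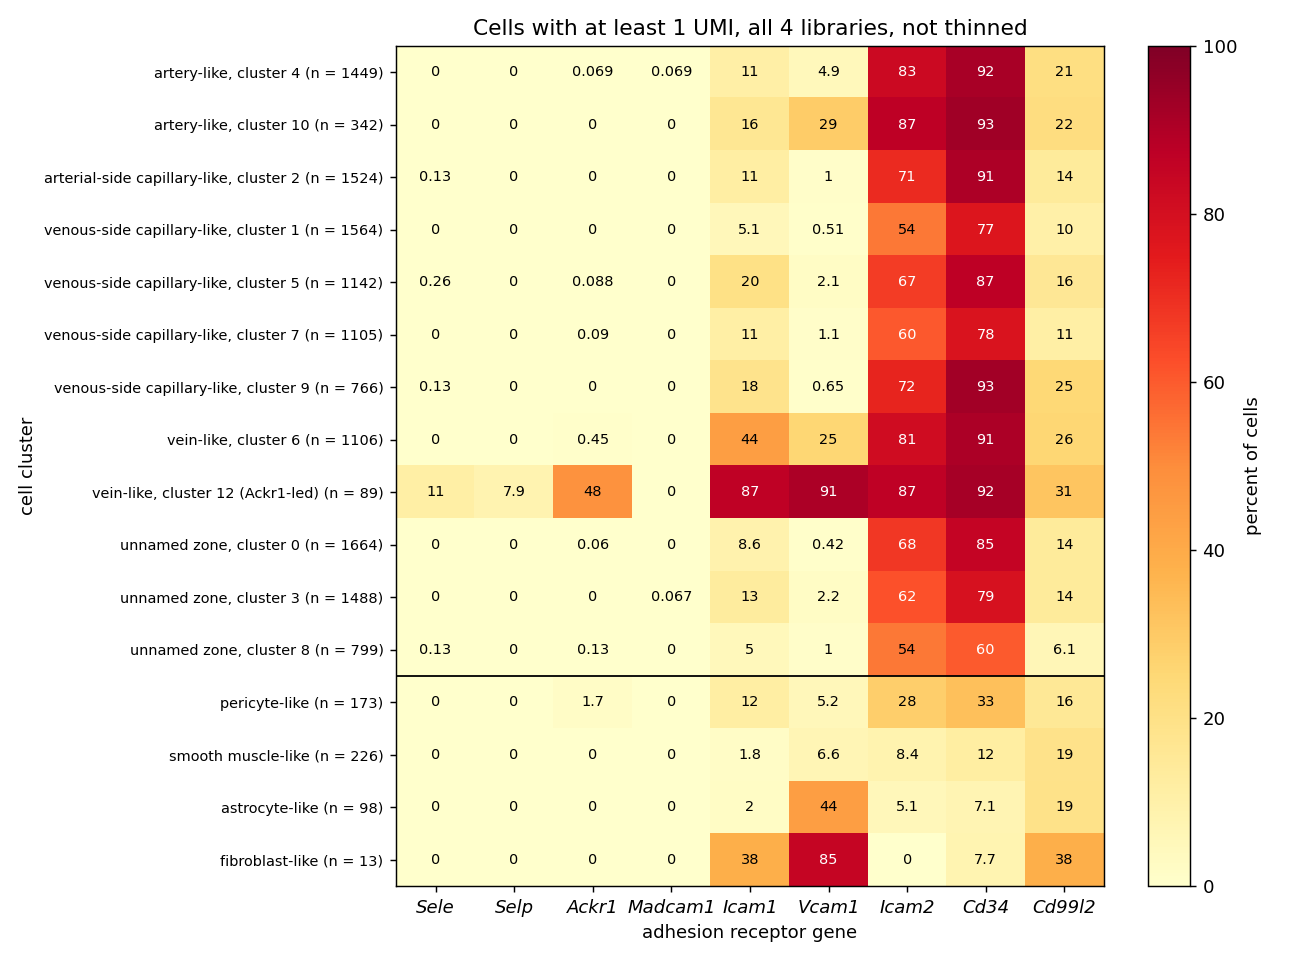
Percent of cells with at least 1 UMI of each receptor (columns) in each endothelial-like cluster and in 4 other cell classes (rows, below the line), pooled over the 4 libraries without thinning to equal depth. Cluster 12 is the only row with Ackr1 above 2% and the only one with Selp, and Icam1 and Vcam1 are in 86.5% and 91.0% of its cells.

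Within vein-like cells the venous receptors were found together. Of the 48 vein-like cells with an Ackr1 UMI, 45 also held Vcam1 (93.8%), 43 Icam1 (89.6%), 8 Sele (16.7%) and 6 Selp (12.5%). Among vein-like cells without one, the shares were 27.7%, 45.2%, 0.174% and 0.087%. The Ackr1-positive cells were deeper, with a median of 11202 UMIs against 8475, and the part of depth in these shares was not tested. All 10 Sele-positive cells held Vcam1 and Icam1, and 8 held Ackr1. Icam1 was present in 73.3% of Vcam1-positive cells, against 35.6% of the other vein-like cells, with median depths of 9089 and 8346 UMIs. Cd99l2 was in 27.8% of Vcam1-positive and 25.4% of Vcam1-negative cells, and Cd34, in 90.6% and 91.1%, was too near its ceiling to show a gap. Over the 16 library-by-zone sums, the genes with the pattern most like Ackr1 were Tmem252, Lcn2 and Il1r1 (Pearson r of 0.93, 0.93 and 0.89 on log2(CPM + 1)), and those most like Vcam1 were Pcp4l1, Vwf and Tmem176b (0.90, 0.88 and 0.87). Icam1 was closest to Ndufa8, Nr2f2 and Il1r1 (0.92, 0.92 and 0.92), Sele to Lcn2, Fmnl2 and Paf1 (0.82, 0.79 and 0.78), Icam2 to Tspo, Pdgfa and Ybx1 (0.92, 0.90 and 0.90), Cd34 to Syne1, Macf1 and Apold1 (0.97, 0.96 and 0.95) and Cd99l2 to Casp12, Gpx7 and Parp12 (0.89, 0.84 and 0.84). The sums share libraries, and these values were ranked over 6265 genes, so they are descriptions.

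The diets were compared first on UMIs summed over all endothelial-like cells of a library. Sele and Ackr1 rose on PLX5622 diet, Icam2, Cd34 and Cd99l2 differed little, and Vcam1 and Icam1 were higher in each PLX5622 library without passing the test. Of the 7 members with enough counts to be tested, 2 were called, both higher, where 0.964% of all 12755 genes were called, 0.721% of them as higher. Sele passed the filter on low counts through its PLX5622 libraries alone, so its call is not independent of that filter. Ackr1, with 3 UMIs in control library 1, lay below the filter's level there and also needed a PLX5622 library to pass. The Ackr1 call is thus not independent of the filter either. Normalized levels of Ackr1 were 18.9 and 11.9 CPM on PLX5622 diet, against 0.335 and 1.55 on control diet, a log2 fold change of 3.62 ± 0.40 (SE; edgeR adjusted p = 0.00689). For Sele they were 1.56 and 2.18 on PLX5622 diet, against 0.112 and 0 on control diet (log2 fold change 5.89 ± 0.78, edgeR adjusted p = 0.0011). As counts, the 68 Sele UMIs on PLX5622 diet and the 1 on control diet give a ratio of 75.6, for which counting error alone allows 13.1 to 3031. This interval takes UMIs as independent, while 24 of them came from 1 cell, so it understates the error.

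The Ackr1 call ended in 3 of 16 alternatives, among them where cells were limited to 5% mitochondrial UMIs (adjusted p = 0.312) and where each library was given the same zone makeup (adjusted p = 0.609), with log2 fold changes of 3.62 and 3.05. The Sele call ended without control library 2. Sele also fell below the filter on low counts with the same zone makeup in each library. Without the vein-like zone, Sele and Ackr1 both fell below it. Both genes fell below the filter once cluster 12 was left out, and then edgeR called 0 of the 5 testable members, with 1327 genes at an unadjusted p under 0.05. Cluster 12 was 0.767% and 1.08% of endothelial-like cells on PLX5622 diet, against 0.469% and 0.432% on control diet. Both this share and the Ackr1 level within these cells, which is given with the plot of single cells, enter the sums.

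Vcam1 was at 48.7 and 93.2 normalized CPM on PLX5622 diet, against 25.1 and 36.8 on control diet. The diets did not overlap, but the PLX5622 libraries differed from each other by more than the lower of them did from either control, and the log2 fold change of 1.16 ± 0.51 was not called (edgeR adjusted p = 0.637). Icam1 was at 68.6 and 95.5 on PLX5622 diet, against 53.9 and 67.6 on control diet (0.42 ± 0.16, adjusted p = 0.406). The lower PLX5622 value of Icam1 lay close to its higher control value. Of 18 alternatives, Vcam1 was called in 2 and Icam1 in 4. Both were called without PLX5622 library 1, where their log2 fold changes were 1.55 and 0.64, and without PLX5622 library 2 these were 0.62 and 0.16. Among all genes, 20.8% had both PLX5622 libraries above both controls, and 4 of the 7 tested members (Sele, Ackr1, Vcam1 and Icam1) did. Of these 4, Sele and Ackr1 needed a PLX5622 library to pass the filter on low counts, so their order is not independent of it.

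Icam2 was at 247 and 248 normalized CPM on PLX5622 diet, against 223 and 264 on control diet (log2 fold change 0.02 ± 0.11). For Cd34 the values were 457 and 451 on PLX5622 diet, against 502 and 486 on control diet (-0.12 ± 0.11, adjusted p = 0.771). Cd99l2 stood at 32.8 and 33.6 on PLX5622 diet, against 32.8 and 32.1 on control diet (0.04 ± 0.09). None of these 3 was called, and the direction of Icam2 and Cd99l2 turned with library totals in place of normalization factors, to -0.02 and -0.01. Selp and Madcam1 had too few counts for the test.

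**Figure D3:**
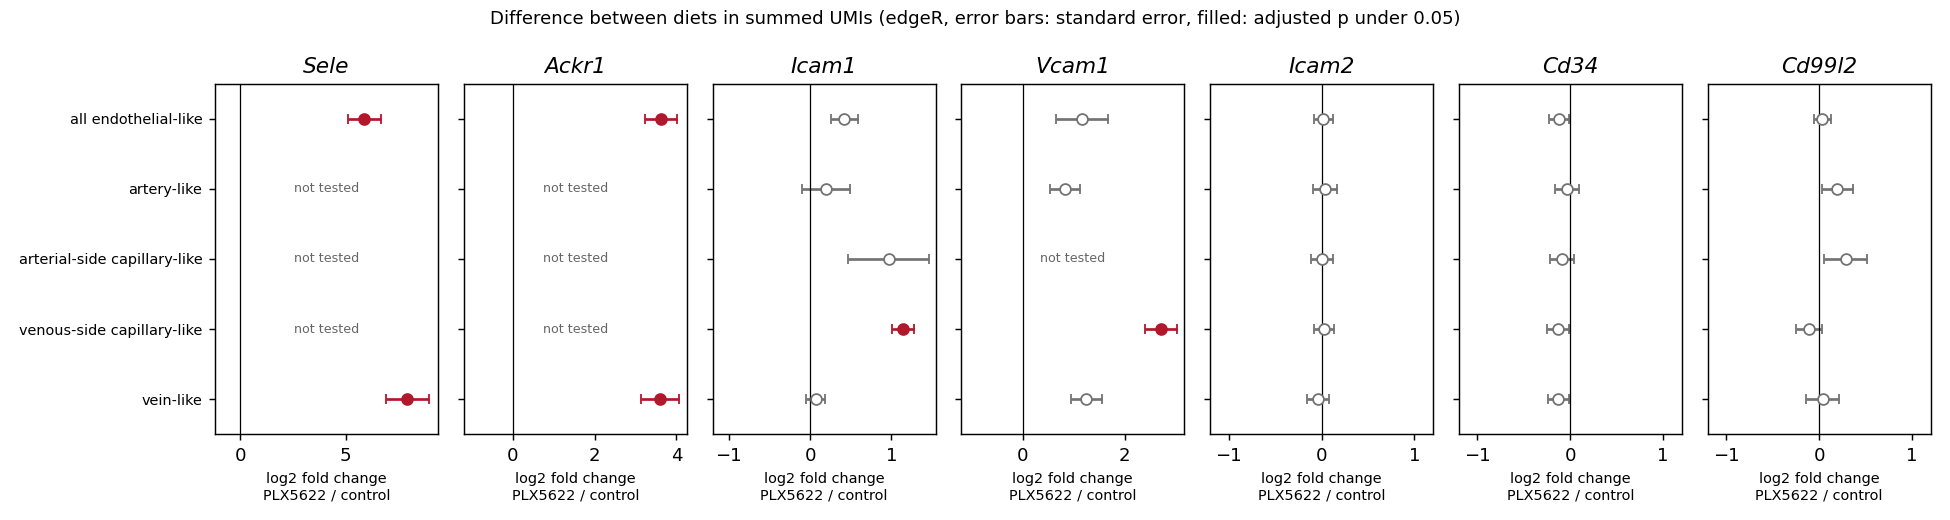
Log2 fold change of PLX5622 over control diet (x axis) for the 7 testable receptors, in all endothelial-like cells and in each zone (rows), with standard errors from edgeR on 2 libraries a diet. Filled points passed an adjusted p of 0.05: Sele and Ackr1 in all cells and in vein-like cells, Icam1 and Vcam1 in venous-side capillary-like cells.

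Tested by zone, Sele and Ackr1 passed in vein-like cells, and Icam1 and Vcam1 passed in venous-side capillary-like cells. In vein-like cells Sele and Ackr1 were the 2 called of 7 tested members, where 0.868% of genes were called. Sele had 16 and 41 UMIs on PLX5622 diet, against 0 and 0 on control diet (edgeR adjusted p = 4.3e-06). With the controls set to 3 UMIs in all it was 22.2-fold higher. Counting error alone, with UMIs taken as independent, allows as little as 17.5-fold. Sele again passed the filter on low counts through its PLX5622 libraries alone, so this call is not independent of the filter. Ackr1 had a log2 fold change of 3.60 ± 0.46 (adjusted p = 0.043), and its call ended without control library 2. At 2.71 CPM in control library 1, Ackr1 lay below the filter's level and needed a PLX5622 library to pass. This call, too, is not independent of the filter. Selp, with no test, had 8 and 9 UMIs on PLX5622 diet, against 0 and 0 on control diet. With the controls again set to 3 UMIs it was 6.61-fold higher, and counting error alone allows as little as 4.82-fold. Vcam1 in vein-like cells was at 242 and 418 normalized CPM on PLX5622 diet, against 126 and 150 on control diet (1.24 ± 0.30, adjusted p = 0.382), a result that was called in 5 of 9 alternatives. Without cluster 12 the spread of Vcam1 narrowed, to 159 and 200 CPM in cluster 6 on PLX5622 diet, against 88.9 and 90.0 on control diet, and it was called (1.02 ± 0.13, adjusted p = 5.9e-05). This alternative was chosen after seeing the data. Icam1 in vein-like cells was at 240 and 280 on PLX5622 diet, against 231 and 262 on control diet (0.07 ± 0.12), and the diets overlapped.

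In venous-side capillary-like cells the called members were Vcam1 and Icam1, 2 of 5 tested, where 1.69% of genes were called. Icam1 was at 57.2 and 71.1 normalized CPM on PLX5622 diet, against 28.0 and 29.9 on control diet (1.14 ± 0.13, adjusted p = 1.2e-08). A UMI of it was in 11.1% and 18.1% of these cells on PLX5622 diet, against 9.42% and 10.6% on control diet, at median depths of 3527 and 5802 UMIs on PLX5622 diet, against 4626 and 4899 on control diet. Vcam1 was at 16.8 and 14.4 on PLX5622 diet, against 0.595 and 3.24 on control diet (2.70 ± 0.31, adjusted p = 7.4e-08), but came from 20 of 1453 and 19 of 1206 cells on PLX5622 diet, against 2 of 637 and 8 of 1281 on control diet. In control library 1, Vcam1 lay below the level of the filter on low counts. It thus needed a PLX5622 library to pass, and its call is not independent of that filter. Neither gene's libraries overlapped between diets. In all endothelial-like cells 20.8% of genes had both PLX5622 libraries above both controls, and the share in this zone was not counted. Free RNA, read from barcodes under 100 UMIs, moved the same way: Vcam1 made up 63.6 and 85.7 CPM of it on PLX5622 diet, against 25.6 and 34.9 on control diet, and Icam1 82.6 and 91.4 on PLX5622 diet, against 67.2 and 66.2 on control diet. Its part in the capillary values was not tested. Different clusters filled this zone. In cluster 5, 4 of the zone's 8 markers were raised, but its 10 leading genes held none of them and included Angpt2 and Apln, which are known from sprouting tip cells, so the zone name is weak there. It was 9.23% and 17.7% of endothelial-like cells on PLX5622 diet, against 3.82% and 4.15% on control diet. Within cluster 5, Icam1 was at 100 and 95.0 CPM on PLX5622 diet, against 39.9 and 44.1 on control diet, and Vcam1 at 35.5 and 20.1 on PLX5622 diet, against 3.07 and 2.36 on control diet. In the zone without cluster 5, an alternative chosen after seeing the data, both genes remained called with smaller log2 fold changes, 0.61 ± 0.15 for Icam1 (adjusted p = 0.03) and 1.86 ± 0.43 for Vcam1 (adjusted p = 0.0207).

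No member was called in artery-like cells (0 of 5, against 0.262% of genes) or arterial-side capillary-like cells (0 of 4, against 0.748% of genes), by edgeR, and DESeq2 also called 0. At an unadjusted p under 0.05 there was 1 member, Vcam1 in artery-like cells (60.7 and 104 normalized CPM on PLX5622 diet, 34.8 and 54.6 on control diet; log2 fold change 0.83 ± 0.30). Arterial-side Icam1 was at 35.1 and 90.7 on PLX5622 diet, against 40.4 and 30.5 on control diet, so 1 library set its log2 fold change of 0.97 ± 0.50. Whether the diet difference itself depended on the zone was tested in 1 model of all zones. It called 37 of 11223 genes (0.33%) and 0 of the 7 members. Icam1 was the 1 member with an unadjusted p under 0.05, and its edgeR adjusted p was 0.566. Leaving out either PLX5622 library made Icam1 and Vcam1 pass, so this test depends on single libraries.

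Shares of positive cells were compared after thinning every endothelial-like cell to 1000 UMIs. Vcam1 was then present in 2.19% and 2.85% of cells on PLX5622 diet, against 1.00% and 1.38% on control diet (unthinned 4.52% and 7.34% on PLX5622 diet, against 3.41% and 4.19% on control diet). Exact 95% Clopper-Pearson intervals, which cover counting error only, were 1.73 to 2.73% and 2.30 to 3.49% on PLX5622 diet, against 0.563 to 1.65% and 1.07 to 1.75% on control diet. The only pair across diets whose intervals met was PLX5622 library 1 with control library 2. Icam1 was in 4.29% and 5.13% of cells on PLX5622 diet, against 2.74% and 3.85% on control diet. Ackr1 was in 0.369% and 0.411% on PLX5622 diet, against 0% and 0.0823% on control diet, and Sele in 0.114% and 0.127% on PLX5622 diet, against 0% and 0% on control diet. For Icam2 the shares were 22.7% and 22.7% on PLX5622 diet, against 21.6% and 22.6% on control diet, and for Cd99l2 2.81% and 3.16% on PLX5622 diet, against 2.88% and 2.71% on control diet. Cd34 was in 34.6% and 34.3% of cells on PLX5622 diet, against 39.4% and 35.9% on control diet. Of these receptors only Cd34 had both PLX5622 shares below both control shares at this depth. How many of all genes do so was not counted. In cells thinned to 2000 UMIs the Cd34 shares overlapped, at 58.9% and 55.1% on PLX5622 diet, against 63.4% and 58.8% on control diet. With 2 libraries a diet a two-sided exact permutation test cannot go below p = 0.333, so shares carry no p.

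Cluster 12 showed the venous receptors cell by cell (see the plot of its single cells). Ackr1 was positive in 16 of 27 and 17 of 34 cells on PLX5622 diet, against 2 of 7 and 8 of 21 cells on control diet. Its UMIs summed to 249 and 239 on PLX5622 diet, against 3 and 47 on control diet, although the median depth of these cells was lower on PLX5622 diet, 7547 and 11837 UMIs, against 12415 and 14985 on control diet. Scaled to depth, Ackr1 was at 1141 and 563 CPM on PLX5622 diet, against 35.4 and 151 on control diet, so its level was higher within the cluster as well. Icam1 was lower there, at 765 and 858 CPM on PLX5622 diet, against 1134 and 1250 on control diet, while Vcam1 overlapped, at 871 and 1884 on PLX5622 diet, against 614 and 1028 on control diet. Sele was positive in 5 and 5 cells and Selp in 4 and 3 cells on PLX5622 diet, against none on control diet. With 7 cells, control library 1 bears little weight in each of these comparisons.

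**Figure D4:**
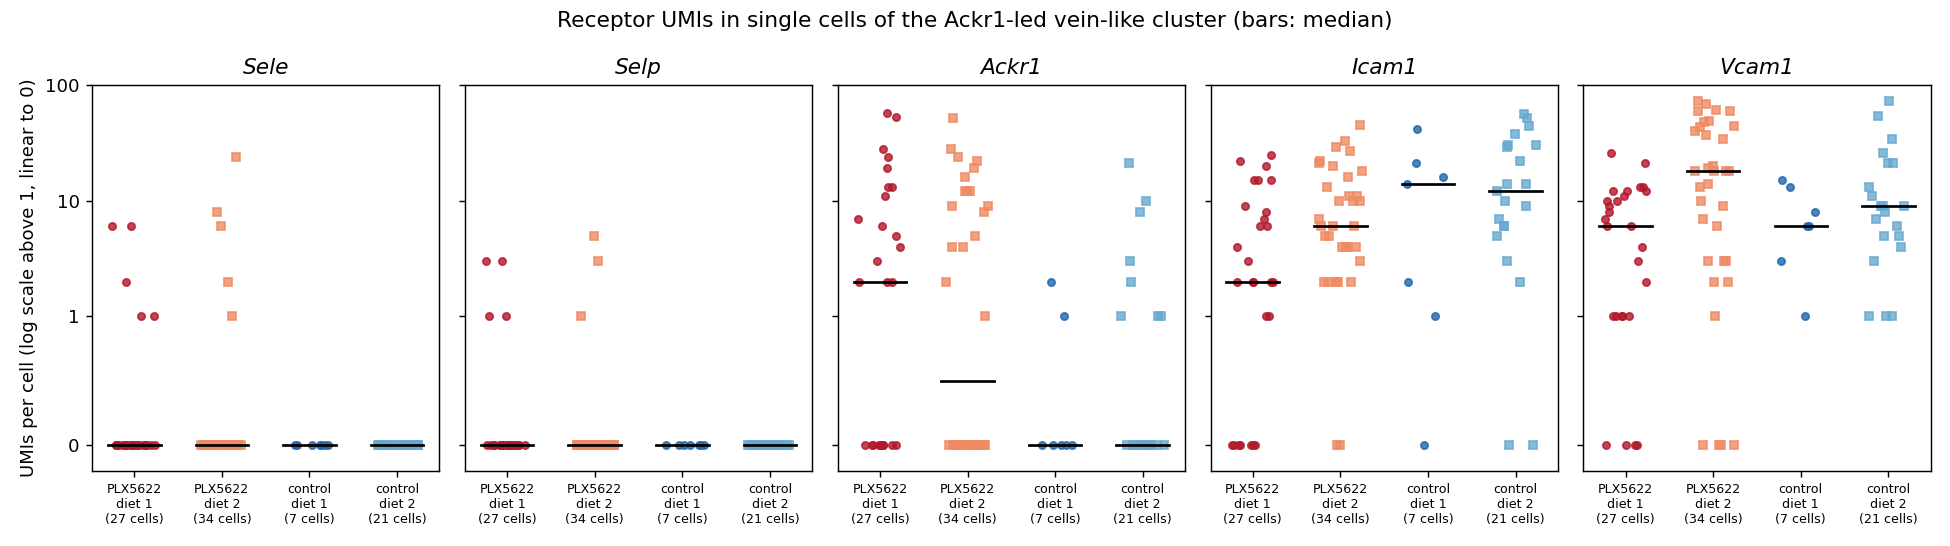
UMIs per cell of 5 receptors (y axis, linear up to 1 and logarithmic above) in the 89 cells of cluster 12, by library, with the median as a bar. Sele and Selp appear in PLX5622 libraries alone, Ackr1 reaches 57 UMIs there and 21 in control library 2, and Icam1 and Vcam1 are found in nearly all control cells.

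The genes that work with these receptors were followed from lists of related function. Of 14 tested junctional and transmigration genes, 9 sialomucins and selectin-ligand enzymes and 16 cytoskeletal partners, edgeR called 0 in either direction in all endothelial-like cells. The lists had 3, 3 and 2 genes at an unadjusted p under 0.05, where 10.4% of all tested genes had one, and medians of log2 fold change of 0.01, -0.09 and 0.00, against 0.00 over all genes. The smallest p-values belonged to Pvr (0.31) and L1cam (0.47), to Cd24a (-0.57) and St3gal4 (-0.39), and to Ezr (-0.35) and Rhog (0.21), as log2 fold changes that did not pass. Among 9 chemokine genes, Cxcl1, which draws neutrophils, was called at 53.7 and 63.0 normalized CPM on PLX5622 diet, against 29.9 and 36.8 on control diet (0.78 ± 0.11, adjusted p = 0.00216), and the other 8 were not. The chemokine list's median was 0.48, with Cxcl10 next at 1.02 ± 0.24 (adjusted p = 0.0658). Among 22 cytokine receptor and NF-kB feedback genes, Il1r1, the interleukin-1 receptor, was called at 27.2 and 29.0 on PLX5622 diet, against 16.2 and 18.5 on control diet (0.68 ± 0.11, adjusted p = 0.00782), and the list's median was 0.08. The Il1r1 call ended without the vein-like zone (0.27, adjusted p = 0.642) and without cluster 12 (0.37, adjusted p = 0.224). Bcl3 followed at 0.58 ± 0.15 (adjusted p = 0.109).

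By zone, the calls in these lists were few, all higher on PLX5622 diet, and named after their values were seen. In vein-like cells 3 of 8 tested chemokine genes were called, Cxcl1, Cxcl10 and Ccl19, where 0.868% of all genes were. At 2.41 normalized CPM in control library 2, Ccl19 lay below the level of the filter on low counts. It needed a PLX5622 library to pass, so the Ccl19 call is not independent of that filter. Vein-like Cxcl1 was at 151 and 130 normalized CPM on PLX5622 diet, against 59.1 and 65.2 on control diet (1.13 ± 0.14, edgeR adjusted p = 9.6e-07). In the same cells 2 of 19 cytokine receptor and NF-kB feedback genes were called, Il1r1 at a log2 fold change of 0.91 ± 0.13 and Bcl3 at 1.03 ± 0.26. Cxcl1 was also called in venous-side capillary-like cells, with Ackr3, as 2 of 7 chemokine genes, and in arterial-side capillary-like cells as 1 of 6.

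Leukocyte RNA was scarce in the endothelial-like cells on either diet. Of 10 integrins and selectin ligands of leukocytes, 3 had enough counts to be tested and edgeR called 0, with 1 at an unadjusted p under 0.05 (Itga4, log2 fold change 0.43); Itgb1 was next by p. Neutrophil and monocyte markers summed to 1.26 and 0.953 CPM on PLX5622 diet, against 1.52 and 0.571 on control diet, with Ccr2, Ly6g and Retnlg at 0 in all 4 libraries. Lymphocyte markers summed to 0.399 and 0.477 on PLX5622 diet, against 0.586 and 0.856 on control diet, with Cd3e, Cd4, Cd8a, Cd79b and Nkg7 at 0. Of 12 microglia markers, 7 were at 0 in each PLX5622 library and none in each control library, and the 12 summed to 24.0 and 27.0 on PLX5622 diet, against 28.9 and 26.2 on control diet. Choroid plexus and ependymal markers summed to 0.864 and 1.72 on PLX5622 diet, against 3.40 and 82.2 on control diet, so control library 2 stood apart. Pericyte markers summed to 275 and 227 on PLX5622 diet, against 200.4 and 197 on control diet, and neuron markers to 3.99 and 3.62 on PLX5622 diet, against 1.76 and 2.38 on control diet, so both were higher in each PLX5622 library, as Sele, Ackr1, Vcam1 and Icam1 were. Without cells holding at least 2 UMIs of pericyte, smooth muscle, erythroid, platelet or astrocyte markers, Sele and Ackr1 were still called, with log2 fold changes of 5.38 and 3.70, and that of Icam1 was 0.27 and of Vcam1 1.09. The part of neuron and choroid plexus markers in the receptor levels was not tested.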

How the data were processed

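The deposited matrices list unnormalized UMI counts of each gene in each barcode, cells or not, per the file headers and as whole numbers, from 10x Genomics 3 prime v3.1 libraries. The file headers name Cell Ranger 4, while Cell Ranger 6.0.1, Seurat 4.0 and the builds mm10 and mm39 stand in the submitters' processing notes with no role; which build underlies the counts is not given in those sources. Libraries held 19044018 and 26949278 UMIs on PLX5622 diet and 11186648 and 38600208 on control diet. Coordinates came from GENCODE M21.

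Cells were clustered from 2000 variable genes with leidenalg 0.10.2 (resolution 0.5 for all cells, 0.8 for endothelial-like cells, 15 neighbours). Clusters were named by marker lists, with a fold of 4 in 25% of cells for other classes and 1.2 for zones, thresholds set after seeing the clusters, so names are rebuilt and end in "-like". Droplets with 2 cells were not called; clusters that mixed markers of another class with endothelial ones were left out, and cells with at least 2 UMIs of another class were removed in an alternative. UMIs were summed per library and zone and tested with edgeR 4.0.16 (quasi-likelihood, TMM, filterByExpr, R 4.3.3) on 2 against 2 libraries, with Benjamini-Hochberg adjustment over all tested genes and a threshold of 0.05. DESeq2 1.42.0 and limma 3.58.1 served as alternatives. On simulated counts for the comparison over all endothelial-like cells (12614 genes, 200 of them changed), 86.6% of genes changed 2-fold and 62.7% of those changed 1.5-fold were recovered. For 1.5-fold changes recovery was lower by zone. It was 27.7% in vein-like, 34.3% in artery-like, 37.9% in arterial-side capillary-like and 50% in venous-side capillary-like cells. Of 2-fold changes, 69.2% were recovered in vein-like cells, the lowest of the zones. The replicate libraries differed by more than sampling noise. All 9 members are named, and from each list every called gene and otherwise the 2 smallest p-values; the 3 most similar genes per member had a mean of at least 20 CPM. Members and lists were chosen with earlier results of these data known.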

Additional observations from a re-analysis of the deposited data

Results flagged for a closer look

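Barcodes with fewer than 100 UMIs, which hold free RNA and debris rather than cells, carried Vcam1, Icam1, Ackr1, Sele and Cd99l2 at a higher level in both PLX5622 libraries than in both control libraries, and for the first 3 the ratio's counting interval lay above 1. Vcam1 had 227 UMIs there on PLX5622 diet and 94 on control diet, or 63.6 and 85.7 CPM on PLX5622 diet, against 25.6 and 34.9 on control diet (ratio 2.43, counting interval 1.90 to 3.12). Icam1 had 260 UMIs on PLX5622 diet and 198 on control diet (ratio 1.32, interval 1.09 to 1.60). Ackr1 had 47 UMIs on PLX5622 diet and 3 on control diet (ratio 15.7, interval 5.07 to 79.0). These barcodes were left out of the comparisons of cells. The share of all genes with both PLX5622 libraries above both controls was not counted in them. In all endothelial-like cells that share was 20.8%. Whether the ordering of these receptors is unusual among genes in such barcodes was therefore not tested. Sele had 4 UMIs on PLX5622 diet and 0 on control diet. Icam2, Cd34 and Cd99l2 had ratios of 0.919, 0.987 and 1.08 there, with intervals that include 1.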

How the results depend on the processing

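Of 513 log2 fold changes recomputed under another setting, 459 kept their direction and their side of the threshold. In all endothelial-like cells, the called members numbered 4 with no filter on low counts (Icam1 and Selp added), 1 with mitochondrial UMIs of at most 5%, 1 without the vein-like zone (Icam1), 0 with an equal zone makeup and 0 without the Ackr1-led cluster. Leaving out 1 library gave 1 to 4 members, where a lone library is assumed to vary like the others. In artery-like cells and in arterial-side capillary-like cells it was 1 with no filter and 0 to 1 without 1 library. With DESeq2 it was 1 in venous-side capillary-like cells, Icam1, and 1 in vein-like cells, Ackr1, since the adjusted p of the other gene is not given by DESeq2. In vein-like cells it was 4 with no filter, 1 without the Ackr1-led cluster (Vcam1) and 1 to 3 without 1 library; the zone model gave 0 to 2.

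Genes called numbered 123 in all endothelial-like cells, but 318 with no filter and 96 to 194 without 1 library. In artery-like cells there were 27, against 10 with DESeq2, 47 with no filter and 12 to 43 without 1 library. In arterial-side capillary-like cells there were 69, against 15 with DESeq2 and 30 to 103. In venous-side capillary-like cells there were 191, against 54 with DESeq2, 97 without the Angpt2-led cluster and 100 to 209. In vein-like cells there were 88, against 39 with DESeq2 and 51 without the Ackr1-led cluster. The zone model called 37, against 1 on group means without a library block and 21 to 49 without 1 library. The cause of these differences was not tested.

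Replicate numbers are shared by the diets in the labels but nothing says that they pair samples, and deviations correlated at 0.18 for same-numbered libraries. With a replicate block, 3 members were called in all endothelial-like cells (Vcam1, Icam1 and Sele, while Ackr1 had an adjusted p of 0.0523), 1 in artery-like and 1 in arterial-side capillary-like cells; genes called were 271 in all cells and 91, 116, 331 and 54 in artery-like, arterial-side capillary-like, venous-side capillary-like and vein-like cells.

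Reversed directions were uncalled, and small except for Icam1 in artery-like cells, at -0.6506 without PLX5622 library 2. In all cells Icam2 turned to -0.0222 with library totals and -0.0089 without cells holding UMIs of another class, and Cd99l2 to -0.0059 with library totals and -0.0135 with an equal zone makeup. Icam2 turned to -0.0009 with no filter and -0.0297 with library totals in arterial-side capillary-like cells, and to -0.0157 with library totals in venous-side capillary-like cells. Without 1 library, Icam2 ranged from -0.0991 to 0.1527 in all cells, -0.0775 to 0.1889 in artery-like, -0.1388 to 0.1695 in arterial-side capillary-like, -0.0766 to 0.1643 in venous-side capillary-like and -0.1815 to 0.081 in vein-like cells. Icam1 ranged from -0.6506 to 0.5976 in artery-like and -0.0466 to 0.1835 in vein-like cells, Cd34 from -0.0732 to 0.0064 in artery-like cells, and Cd99l2 from -0.3047 to 0.0323 in venous-side capillary-like and -0.0143 to 0.1192 in vein-like cells. Cxcl1 was called in all 18 alternatives and Il1r1 in 16 of 18. Depth limits Sele, Selp and Madcam1, and the shares in control library 1. The alternatives without the Ackr1-led or Angpt2-led cluster and with low-UMI clusters were chosen after seeing the data.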
